A study of Mus musculus with 4 samples.

Results

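The nuclear genes that encode the subunits of oxidative phosphorylation were followed through the cell types of aged gonadal white adipose tissue. A gene was a member when its symbol began with Ndufa, Ndufb, Ndufc, Ndufs or Ndufv followed by digits alone, began with Uqcr or Atp5, or stood in a short list of Sdh, Cyc and Cox symbols. These rules found 79 of 31054 gene features, with 35 in complex I, 4 in complex II, 9 in complex III, 13 in complex IV (Ndufa4 included) and 17 in complex V, plus cytochrome c (Cycs). Complex I gave 29.9% of all member transcripts, complex V 28.4%, complex IV 28.1%, complex III 11.0%, complex II 2.06% and cytochrome c 0.525%. The row Atp5o-ENSMUSG00000116933, which overlaps Atp5o on the same strand, had no count in any library. By counting error alone this allows up to 3 counts in each. Reads that match several genes are not counted, so the absence of counts sets no limit on the expression of this gene.

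Cells of the stromal vascular fraction came from 18-month-old male p16-CreERT2/R26-LSL-tdTomato mice that had been given tamoxifen. In all of them Cre recombinase was driven by the promoter of p16 (Cdkn2a), a cell cycle inhibitor raised in senescent cells, so tdTomato marked any cell type in which that promoter was active while the drug was present. Sorting by tdTomato and by CD45, a surface protein of leukocytes, gave 4 groups: a CD45- pair, made of CD45- Tom+ and CD45- Tom- cells, and a CD45+ pair made of CD45+ Tom+ with CD45+ Tom- cells. Each was a single library, the number of mice behind it is not given in the sources used here, and neither a young nor a Cre-free group was compared. With 1 library per group no test between groups was made, and every interval given for a single gene is a 95% interval for counting error only.

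Oxidative phosphorylation passes electrons from NADH (complex I) or succinate (complex II) through complex III, cytochrome c and complex IV to oxygen, and complex V, the ATP synthase, uses the resulting proton gradient to make ATP. Most subunits are made from nuclear genes and imported, while the mitochondrial genome encodes a smaller set of core subunits of complexes I, III, IV and V. In adipose tissue the balance between respiration and glycolysis is known to differ with the activation of macrophages, and brown but not white adipocytes are known for very high respiratory capacity.

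The libraries held 64083756 to 139397501 unique molecular identifiers (UMIs, each standing for 1 captured transcript), and 1927 to 4391 cells passed the filters with medians of 18331 to 19516 UMIs per cell. The tdTomato transcript followed the labels, at 713 and 714 CPM (counts per 1000000 UMIs) in the Tom+ libraries against 15.8 and 18.7 CPM in the Tom- libraries. The CD45 labels were not borne out: Ptprc, the CD45 gene, lay between 157 and 223 CPM in all 4 libraries, and leukocyte-like and stromal-like classes were present in each. The Tom+ libraries carried 24.8% and 25.2% of their UMIs in immunoglobulin genes against 1.13% and 1.53% in the Tom- libraries. Pairs of libraries shared 26 to 4394 cell barcodes, 97 kept cells were the shallower copy of such a barcode, and no median over the members given below changed direction when these were left out.

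Clusters were named from marker genes, and 13 named classes and 6 unnamed clusters had at least 50 cells in at least 1 library. The adipocyte progenitor class is called APC-like. Its 10 markers were all detected in the library labelled CD45- Tom+, where they summed to 25949 CPM, against 17.4 CPM for 7 markers of mature adipocytes. Members were not used for clustering.

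Short stretches of member promoters are shown for 10 members that recur in the comparisons and carry, near their start, a motif of a factor known to control respiratory genes. Windows of 300 bases (250 before to 50 after the start, RefSeq, GRCm38.p6) were found for 66 of 78 member symbols, and both strands were searched. The NRF1 motif CGCATGCG, its own reverse complement, was in 10 of the 66 windows (15.2%, against 2.07% of 27025 gene promoters), and the GABP motif CCGGAAG was in 16 (24.2%, against 9.93%). The YY1 motif AAGATGGC, which contains the letters of a start codon, was in 10 (15.2%, against 3.19%), and the ESRRA motif TCAAGGTCA was in 2 (3.03%, against 0.466%). The general CCAAT box was in 29 (43.9%, against 41.1%). In all, 31 members held at least 1 of the NRF1, GABP, YY1 and ESRRA motifs, and a match is a description of the letters only. The capitals below mark the motif or its reverse complement, and each stretch reads 5′ to 3′ along the gene.
Cycs, NRF1, chr6:50566613-50566640, minus strand: catgctagctCGCATGCGcgcgcacaaa
Atp5g2, NRF1, chr15:102671071-102671098, minus strand: gctccggccgCGCATGCGcagagccttc
Atp5k, NRF1, chr5:108434431-108434458, minus strand: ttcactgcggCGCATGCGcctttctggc
Uqcr11, NRF1, chr10:80406809-80406836, minus strand: atcgccttcaCGCATGCGctatacgtct
Cox6b1, GABP, chr7:30626126-30626152, minus strand: cctctcgcagCTTCCGGccagtcggaa
Sdhb, GABP, chr4:140961267-140961293, plus strand: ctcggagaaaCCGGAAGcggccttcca
Ndufs8, GABP, chr19:3912743-3912769, minus strand: taggctccgcCTTCCGGttgaaccgca
Ndufa3, YY1, chr7:3617385-3617412, plus strand: cgccaagaacAAGATGGCcgggagtaag
Ndufb8, YY1, chr19:44555393-44555414, minus strand: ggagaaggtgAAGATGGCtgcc
Atp5g3, ESRRA, chr2:73911360-73911388, minus strand: tgttacaaagTGACCTTGAgcgtcttccc

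Together the members took 1.31% of the UMIs of kept cells in the library labelled CD45- Tom+, 1.41% in CD45- Tom-, 1.21% in CD45+ Tom+ and 1.46% in CD45+ Tom-. These are shares of all UMIs. Immunoglobulin genes took 24.8% and 25.2% of them in the Tom+ libraries against 1.13% and 1.53% in the Tom- libraries. With immunoglobulin UMIs left out of the totals, the Tom+ library has the higher member share in each pair. Between cell classes the share varied more. It was highest in dendritic-like and monocyte-like cells, both at 1.75% (the latter in 1 library), followed by macrophage-like cells at a mean of 1.67% (1.55% to 1.77% over 4 libraries) and T cell-like cells at 1.49% (1.41% to 1.56%). Mesothelial-like cells had 1.44%, NK cell-like cells 1.41%, vascular endothelial-like cells 1.34%, lymphatic endothelial-like cells 1.31% and APC-like cells 1.28% (1.19% to 1.33%). Neighbours in this middle stretch overlapped over their libraries, whereas the macrophage-like range lay above the whole APC-like range. The lowest shares were in B cell-like (1.21%), mast-like (1.15%), plasma cell-like (0.974%) and neutrophil-like cells (0.927%).

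The place of plasma cells in this order depended on the scale. Immunoglobulin genes took 45.7% to 52.4% of their UMIs, and with these left out of the total the member share was 1.94% (1.83% to 1.99%), above every other named class, while neutrophil-like cells stayed lowest at 0.933%.

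The 13 genes encoded by the mitochondrial genome did not rank the classes in the same way. Their share was highest in B cell-like (4.78%), mast-like (4.66%) and macrophage-like cells (4.54%) and lowest in plasma cell-like (2.29%) and neutrophil-like cells (1.13%). B cell-like and mast-like cells thus combined a low nuclear share with a high mitochondrially encoded share. Across the 19 classes and clusters Spearman's rho between both shares was 0.24 and Pearson's r 0.354, and over the 13 named classes rho was 0.126. The points share libraries and totals, so these are descriptions.

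**Figure D1:**
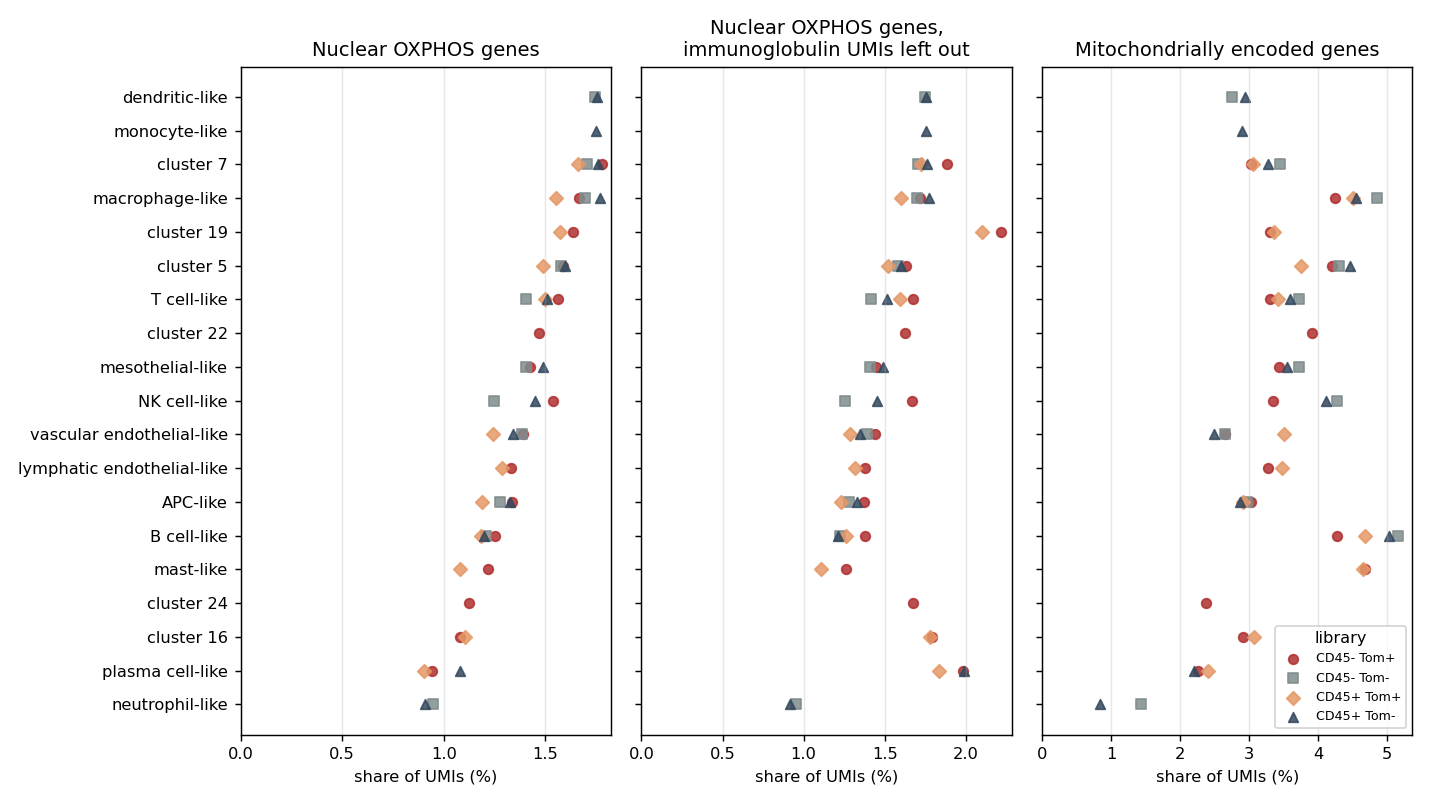
Share of UMIs (%) in nuclear oxidative phosphorylation genes (left), the same with immunoglobulin UMIs left out (middle), and in mitochondrially encoded genes (right), for each class or cluster with at least 50 cells, 1 point per library. Plasma cell-like cells lie near the bottom on the left (mean 0.974%) and among the highest in the middle (1.94%), and neutrophil-like cells are low in all 3 panels.

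The members varied less between classes than most genes above the same minimum level, although levels within it were not matched. For the 76 members with a median of at least 20 CPM over the 13 classes, the highest class mean exceeded the lowest by a median of 2.87-fold, against 6.45-fold for all 4971 genes above that level. A range over 3-fold was seen for 42.1% of these members and 90.3% of those genes. By complex the median range was 2.62-fold in complex IV, 2.75-fold in complex III, 2.85-fold in complex V, 2.98-fold in complex I and 3.94-fold in complex II, and it was 3.51-fold for cytochrome c. Cox7a2 and Ndufs6 were the most even at 1.69-fold and 1.74-fold.

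The widest range in complex I was that of Ndufa5 (chr6:24518666-24528013, mm10), an accessory subunit of the matrix arm. It averaged 123 CPM in APC-like cells, where the libraries gave 129, 125, 103 and 135 CPM, and 8.13 CPM in neutrophil-like cells, where the 2 libraries with enough cells gave 7.04 CPM (1.45 to 20.6) and 9.22 CPM (2.99 to 21.5) from 3 and 5 UMIs. Neutrophil-like cells were the lowest class for many members and also the shallowest, with medians of 3791 and 3946 UMIs per cell. Among members with a median of at least 20 CPM, the widest in complex II was Sdha, the catalytic flavoprotein of succinate dehydrogenase. Its range was 4.21-fold (lymphatic endothelial-like 123 CPM, plasma cell-like 29.2 CPM). By the same limit, Uqcrb was widest in complex III at 3.96-fold, Cox5a in complex IV at 3.60-fold and Atp5g2 in complex V at 4.51-fold. Cox7a1 of complex IV, below that level, ran from 0.318 CPM in lymphatic endothelial-like to 7.81 CPM in macrophage-like cells, 24.5-fold.

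Ranges of other central subunits follow. Cox4i1, a large nuclear subunit of cytochrome c oxidase, ran from 349 CPM in mast-like to 881 CPM in monocyte-like cells. Uqcrfs1, the Rieske iron-sulfur protein, ran from 44.6 CPM in mast-like to 173 CPM in monocyte-like cells. Cyc1, the cytochrome of complex III, ran from 27.7 CPM in neutrophil-like to 72.4 CPM in dendritic-like cells. Ndufv1, which binds NADH, ran from 23.7 CPM in neutrophil-like to 70.8 CPM in mesothelial-like cells, and Atp5b, the catalytic beta subunit of ATP synthase, from 163 CPM in neutrophil-like to 392 CPM in lymphatic endothelial-like cells. Cycs was highest in dendritic-like cells at 187 CPM and lowest in mesothelial-like cells at 53.2 CPM.

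**Figure D2:**
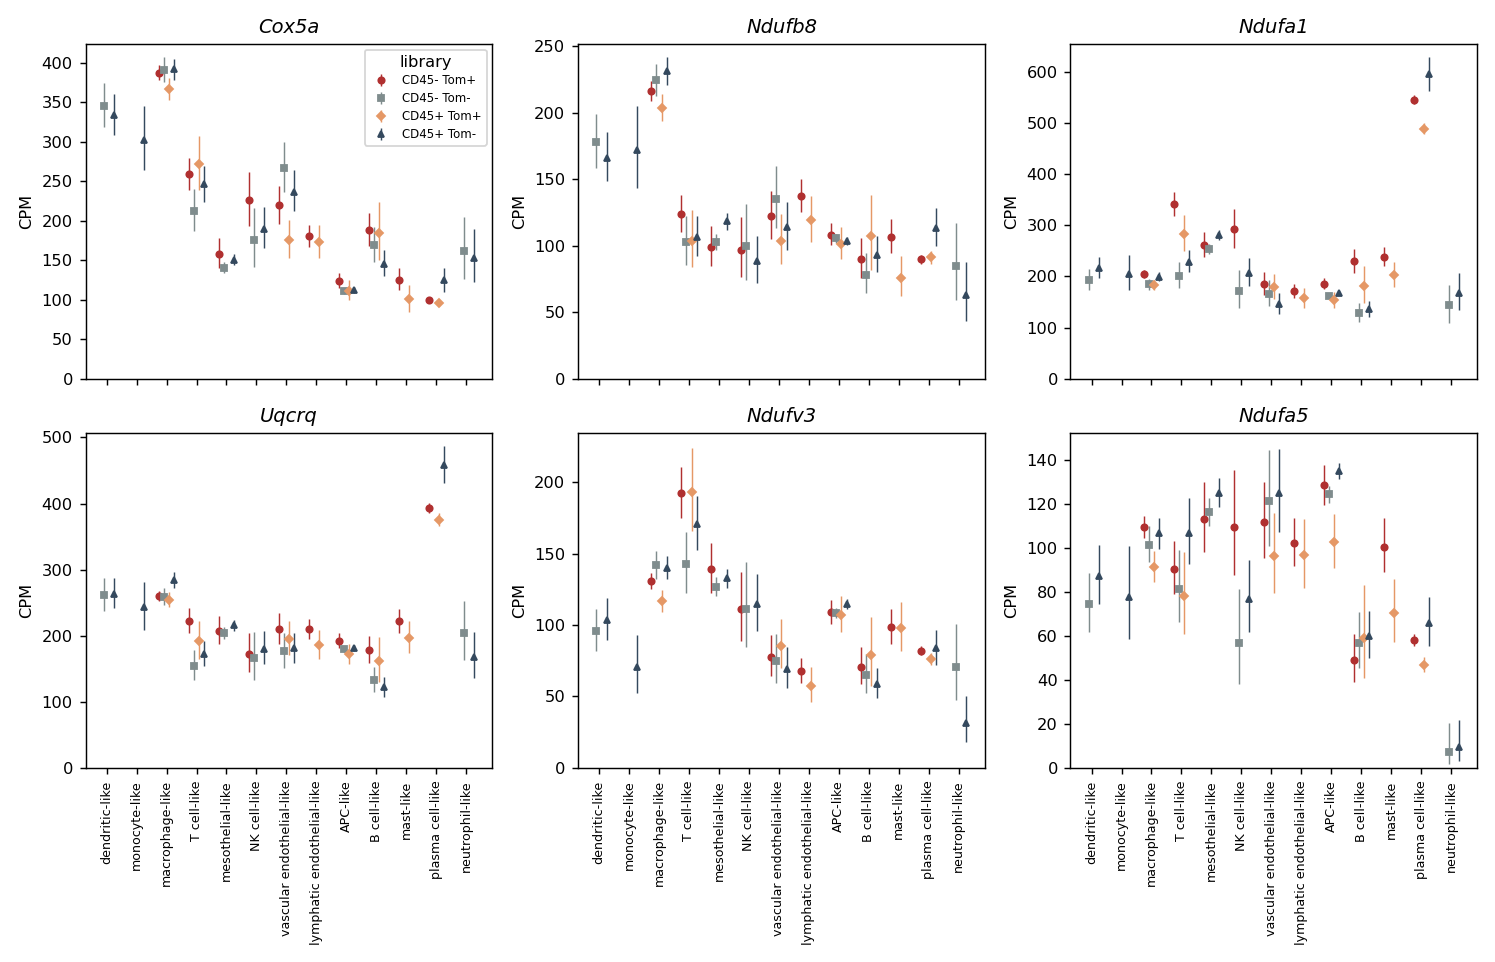
Level (CPM) of Cox5a, Ndufb8, Ndufa1, Uqcrq, Ndufv3 and Ndufa5 in the 13 named classes, 1 point per library with its counting interval. Cox5a and Ndufb8 peak in macrophage-like cells, Ndufa1 and Uqcrq in plasma cell-like cells and Ndufv3 in T cell-like cells, and Ndufa5 is near the floor in neutrophil-like cells.

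Some subunits are made from several genes, and their mix differed between classes. Atp5g1, Atp5g2 and Atp5g3 encode the same mature ring subunit of ATP synthase. Atp5g2 supplied 57.0% of their UMIs in B cell-like cells (55.2% to 60.5% over libraries) but 36.0% in neutrophil-like cells. Atp5g1 supplied 35.2% in plasma cell-like cells (33.6% to 36.2%) against 18.9% in B cell-like cells (17.6% to 20.7%), and these ranges did not overlap. Atp5g3 had its highest mean in neutrophil-like cells at 42.3% (39.9% and 44.8%, from 55 and 60 UMIs). These overlapped the range of vascular endothelial-like cells (36.5% to 40.4%). Its lowest mean was 24.1% in B cell-like cells, near the 24.3% of plasma cell-like cells. Cox7a1, the isoform known from muscle and brown fat, gave a mean of 3.33% of Cox7a1 plus Cox7a2 in mesothelial-like cells (2.59% to 4.48% over libraries) and 2.52% in macrophage-like cells (2.07% to 3.01%).

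Macrophage-like cells expressed most members at a higher level than APC-like cells of the same library. The ratio of CPM was formed in each of the 4 libraries and averaged on the log2 scale. Of the 79 members, 76 had a mean of at least 5 CPM, and their median log2 ratio was 0.35 (0.29 to 0.38 over libraries), against 0.00 over 9804 genes. Of these 76, 65 were above 0, but just 9 were higher by over 1.5-fold in every library and none was lower. Among all genes 21.2% were higher and 24.0% lower by that rule, so the members moved together by a small amount and few of them moved far. By complex the median was 0.24 in complex I, 0.41 in III and V, 0.49 in IV and 0.67 in II. The direction held under both other scalings, with 23 higher members under TMM (25.3% of genes) and 11 under DESeq2 size factors (22.6% of genes).

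Cox5a (chr9:57521274-57532426), a subunit of cytochrome c oxidase, showed the largest difference. It measured 387, 391, 366 and 392 CPM in macrophage-like cells of the CD45- pair (Tom+ first) and then the CD45+ pair, against 124, 111, 111 and 112 CPM in APC-like cells. The groups did not overlap, and the mean difference was 3.36-fold. Ndufb8 (chr19:44548572-44555440), in the membrane arm of complex I and with the YY1 letters shown above, measured 204 to 231 CPM against 101 to 108 CPM, a 2.09-fold difference.

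A membrane anchor and the iron-sulfur subunit of succinate dehydrogenase were among the 9. Sdhc averaged 115 CPM against 64.5 CPM and Sdhb 103 CPM against 59.5 CPM. The others were Atp5g2 (422 against 242 CPM), Ndufs8, an iron-sulfur core subunit of complex I (65.0 against 38.1 CPM), Cox6b1 (500 against 297 CPM), Uqcr11 (301 against 188 CPM) and Cox7a2 (305 against 190 CPM). At the other end Ndufa11, Ndufa5 and Ndufv1 had log2 ratios of -0.29, -0.26 and -0.23, each below 0 in all 4 libraries and none past 1.5-fold.

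Glycolysis genes and carriers spread further than the members in this contrast, and the mitochondrially encoded, tricarboxylic acid cycle and regulator lists did not. Of 16 glycolysis genes tested 12 were higher and 2 lower, with a median of 1.29, led by the lactate exporter Slc16a3 (60.1 against 5.17 CPM), Pkm (530 against 138 CPM) and Hk2, which was lower (63.7 against 234 CPM). Ucp2, a carrier of the inner membrane, was at 1372 CPM against 39.8 CPM. Of 13 mitochondrially encoded genes 2 were higher, mt-Co1 and mt-Co2, and the median was 0.53. Of 13 regulators tested 3 were higher, Ppargc1b (7.72 against 2.81 CPM), Esrra (25.4 against 10.7 CPM) and Lrpprc (26.1 against 14.2 CPM), and the median of that list was 0.04. Ndufa4l2, a relative of Ndufa4 outside the member rule, was at 0.45 CPM against 26.6 CPM in APC-like cells. The tricarboxylic acid cycle genes had a median of 0.11, with Pdha1 lower (40.3 against 73.8 CPM), and the 43 assembly factors a median of 0.18, with 4 higher, led by Cox17 (95.6 against 34.0 CPM), and Ttc19 lower (13.8 against 49.2 CPM).

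Mesothelial-like and APC-like cells, compared in the 3 libraries that held at least 50 cells of each, barely differed. The median over 77 members was 0.10 (0.06 to 0.18 over libraries), below the 0.13 over 10102 genes, and it turned to -0.07 under TMM and -0.04 under DESeq2 size factors. Atp5g2 (418, 371 and 381 CPM against 252, 241 and 238 CPM) and Ndufb4 (185, 190 and 189 CPM against 117, 117 and 122 CPM) were higher by over 1.5-fold in each library and none was lower, where 17.6% and 11.6% of all genes passed. Neither passed relative to the median gene (14.4% of genes higher and 13.6% lower), under TMM or under DESeq2 size factors. Sdhc had a log2 ratio of 0.66 but stayed under 1.5-fold in 1 library. The lowest members were Ndufs5, Ndufb2 and Cycs, at -0.37, -0.30 and -0.29.

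Outside the member rule none of 13 mitochondrially encoded genes and none of 42 assembly factors passed 1.5-fold in this pair of classes, but single genes did. Cox6b2, known as a testis isoform of complex IV, measured 71.1 CPM in mesothelial-like and 6.98 CPM in APC-like cells. Ndufa4l2 was at 0.278 against 26.9 CPM and the coactivator Ppargc1a at 0.717 against 17.6 CPM. Mdh2 (240 against 100 CPM), Pdha1 and Suclg2 were the 3 of 18 tricarboxylic acid cycle genes that were higher, and Hk2 was at 16.9 against 222 CPM.

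Plasma cell-like cells were set against B cell-like cells, their precursors in the lineage, in 3 libraries. On the scale of total UMIs the median over 76 members was -0.34 (-0.41 to -0.17 over libraries), but the median over 7890 genes was -1.32, so the members lay 0.98 above the typical gene. By total UMIs 3 members were higher and 12 lower past 1.5-fold in every library, where 4.58% of genes were higher and 64.9% lower. Relative to the median gene 53 members were higher and none lower, with 20.8% and 18.4% of all genes. The direction of the median thus depended on the scaling, at 0.99 under TMM (57 higher, with 22.2% of genes), 0.97 under DESeq2 size factors (52 higher, with 21.8%) and 0.56 with immunoglobulin UMIs left out (26 higher, with 13.1%). Median depth was 38901.5 UMIs per plasma cell-like cell and 6506 per B cell-like cell in the library labelled CD45- Tom+.

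Ndufa1 and Uqcrq were higher in plasma cell-like cells on each scale tried. Ndufa1 (chrX:37187588-37191163), a small accessory subunit of complex I, measured 546, 489 and 596 CPM against 230, 181 and 136 CPM in B cell-like cells, a 3.04-fold difference. Its log2 ratio was 1.61 and ran from 1.42 to 2.94 over the alternatives. Uqcrq (chr11:53427922-53430831), a small subunit of complex III, measured 393, 376 and 458 CPM against 178, 161 and 122 CPM, 2.68-fold. Ndufb9 was the remaining higher member at 164 against 92.4 CPM.

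Sdha was the lowest member and stayed below 0 on each scale. It measured 24.6, 23.6 and 39.4 CPM in plasma cell-like against 80.8, 77.0 and 95.4 CPM in B cell-like cells, a log2 ratio of -1.57 that ran from -1.75 to -0.23 over the alternatives. Ndufs1, the largest core subunit of complex I (13.6 against 32.4 CPM), and Ndufa6 (93.4 against 218 CPM) were next by total UMIs, at -1.29 and -1.22, but came to 0.05 and 0.11 under TMM and 0.02 and 0.09 under DESeq2 size factors.

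The mitochondrially encoded genes had a median of -1.07, with 12 of 13 lower by total UMIs, against the -1.32 of all genes. Regulators of mitochondrial gene expression had a median of -1.61, and the 3 with the largest difference were Lrpprc (4.68 against 26.0 CPM), Mterf1a (2.18 against 10.1 CPM) and Tfam, which packages mitochondrial DNA (14.1 against 65.6 CPM). Cox4i2, the alternative to Cox4i1 known to be raised by low oxygen, went the other way at 55.7 CPM against 4.34 CPM. Eno1 (12.7 against 121 CPM) was the lowest of 14 glycolysis genes, whose median was -1.21. These levels are all per total UMIs.

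T cell-like cells exceeded B cell-like cells in 70 of 76 members, with a median of 0.34 (0.25 to 0.41 over 4 libraries) against 0.19 over 8685 genes. The median stayed above 0 under TMM (0.15) and DESeq2 size factors (0.17). Past 1.5-fold in every library 3 members were higher and none lower, where 11.4% and 5.66% of genes passed. Relative to the median gene 1 was higher, Ndufv3, with 8.61% and 7.61% of all genes. Ndufv3 (chr17:31520115-31531331), an accessory subunit at the tip of complex I where NADH binds, measured 192, 142, 194 and 171 CPM against 70.7, 64.8, 78.8 and 58.9 CPM, a 2.56-fold difference without overlap. Ndufa4, once counted in complex I and now in complex IV, averaged 452 against 249 CPM, and Ndufa13 342 against 197 CPM. Sdhc had a ratio of 0.84 but missed 1.5-fold in 2 libraries, and Cox7a2l, known for joining complexes into supercomplexes, was lowest at -0.33.

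The mitochondrially encoded genes went the other way from the nuclear members in this contrast. Their median was -0.45, and mt-Nd5 (471 against 773 CPM) and mt-Cytb (2420 against 3910 CPM) were lower past 1.5-fold. Of 14 glycolysis genes 6 were higher, led by Hk2 (55.3 against 12.2 CPM) and Pfkp (194 against 46.6 CPM).

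Mast-like cells reached 50 cells in the 2 Tom+ libraries, and there they had lower levels of most members than macrophage-like cells. The median over 77 members was -0.51 (-0.50 and -0.48 in the separate libraries) against -0.11 over 9118 genes, and 72 of the 77 were below 0. Past 1.5-fold in both libraries 27 members were lower and 1 higher, where 26.6% of genes were lower and 22.9% higher. Relative to the median gene 20 were lower and 1 higher (23.3% and 25.4% of genes). The direction was the same under both other scalings, with 32 lower under TMM (29.3% of genes) and 27 under DESeq2 size factors (26.7%), and 15 were lower when cells were thinned to 2000 UMIs (22.9%). Median depth was 6274.5 and 6753 UMIs per mast-like cell against 23227 and 21290 per macrophage-like cell.

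Cox5a was again furthest apart among abundant members, at 125 and 101 CPM in mast-like against 387 and 366 CPM in macrophage-like cells. Sdhc followed at 50.0 and 40.4 CPM against 109 and 117 CPM, and Atp5k at 114 and 79.4 CPM against 253 and 201 CPM. Cox4i1 was at 366 and 332 CPM against 749 and 738 CPM. Atp5f1, a stalk subunit of ATP synthase, was the single higher member at 415 and 388 CPM against 256 and 248 CPM. Ndufa1 and Ndufb2 both had log2 ratios of 0.18, well under 1.5-fold. The mitochondrially encoded genes had a median of 0.18 with none past 1.5-fold, whereas 12 of 17 glycolysis genes were lower with a median of -1.24, led by Hk3 (1.51 against 48.1 CPM).

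**Figure D3:**
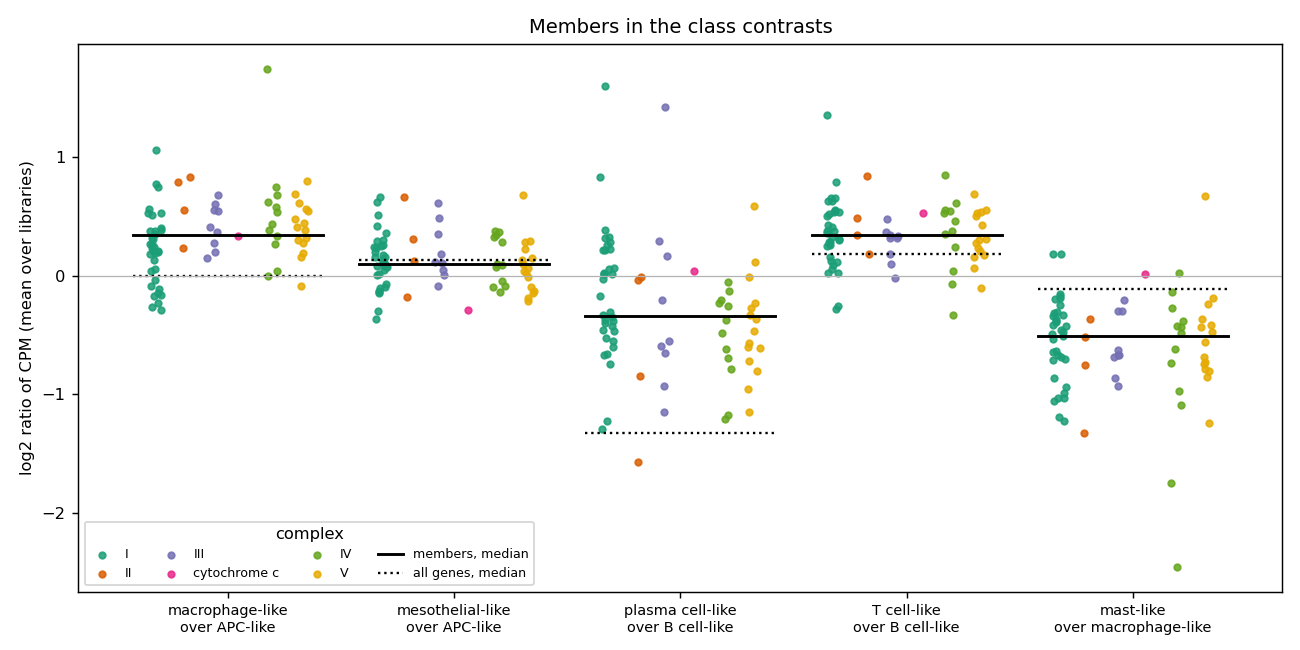
Log2 ratio of CPM for each member in 5 class contrasts, mean over libraries, coloured by complex, with the median of the members (solid) and of all genes (dotted). The members' median lies above that of all genes in the macrophage-like, plasma cell-like and T cell-like contrasts and below it in the mast-like one. Its sign in the plasma cell-like and mesothelial-like contrasts depends on the scaling (0.99 and -0.07 under TMM).

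The study's own comparison is between Tom+ and Tom- cells. Within a class this is 1 library against another, and a member was counted when its CPM differed by over 0.32 on the log2 scale, taken below as the limit. In APC-like cells of the CD45- pair (264 Tom+ and 1537 Tom- cells) the median over 77 members was 0.06 against -0.03 over 9921 genes, and 66 members were above 0. None passed the limit, where 6.15% of genes were higher and 7.65% lower. The highest were Ndufb7 at 127 CPM in Tom+ and 108 CPM in Tom- (log2 ratio 0.23, interval 0.12 to 0.34), Uqcrfs1 at 63.4 and 54.6 CPM and Ndufa1 at 186 and 162 CPM. Sdhc and Ndufs1 were among the lowest, at -0.09 and -0.08. The sign of the median, but not its place relative to other genes, changed with the naming of 1 cluster. Cluster 24 (74 cells of the library labelled CD45- Tom+) had progenitor and plasma cell markers and 32.8% immunoglobulin UMIs, and with it counted as APC-like the median was -0.05 against -0.27 over all genes.

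In APC-like cells of the CD45+ pair (108 and 1719 cells) the members' median was below 0, but members passed the limit no more often than other genes. The median was -0.13 against -0.04 over 9836 genes, with 10 members lower and 1 higher past the limit, where 13.8% of genes were lower and 9.25% higher. Relative to the median gene 5 were lower and 1 higher (10.9% and 11.8% of genes). Without immunoglobulin UMIs in the totals the median was -0.08, with 5 lower (10.4% of genes). With cluster 24 counted in, it was -0.21 against -0.24 over all genes, so the members then lay 0.03 above the typical gene. Of the 10, 6 belonged to complex I, which holds 35 of the 79 members, 2 to complex III and 2 to complex V. Atp5k was lowest at 127 against 188 CPM (-0.56, interval -0.72 to -0.41), then Ndufa3 at 110 against 154 CPM and Ndufs1 at 26.2 against 34.5 CPM. Ndufa5, Ndufb2, Uqcrb, Ndufb6, Uqcr11 and Atp5g3 were also lower. The higher one, Atp5s, rested on 20 UMIs in the Tom+ library. Ndufa12, Ndufa9 and Ndufb10 had the highest ratios among abundant members, at 0.11, 0.08 and 0.06. The 8 plasma cell markers summed to 2598 CPM in these Tom+ cells and 159 CPM in the Tom- cells, and their part in the result was not tested.

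Macrophage-like cells gave a similar picture. In the CD45- pair (619 and 277 cells) the median was -0.02 against -0.05 over 8920 genes, and its sign changed with scaling (0.05 under TMM and under DESeq2 size factors). Ndufa12 was the single member past the limit, at 100 CPM in Tom+ and 79.8 CPM in Tom-, where 5.50% of genes were higher and 10.0% lower (7.63% and 7.30% relative to the median gene). It came to -0.03 in cells thinned to 2000 UMIs. Cycs was at 84.9 and 73.3 CPM and Ndufa4 at 362 and 326 CPM, and Ndufb10 and Uqcrc1 were among the lowest at -0.22 and -0.18.

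In the CD45+ pair (321 and 368 cells) the median was -0.18 against -0.05 over 8953 genes, and 74 of 77 members were below 0. Past the limit 5 members were lower and none higher, where 11.3% of genes were lower and 7.18% higher (8.28% and 9.61% relative to the median gene, by which 3 members were lower). Ndufa3 was at 125 CPM in Tom+ against 187 CPM in Tom- (-0.58, interval -0.70 to -0.46), Atp5k at 201 against 278 CPM and Cycs at 69.3 against 90.1 CPM. Ndufa11 (93.4 against 119 CPM) and Ndufa6 (178 against 223 CPM) were the others. Cox7b, at 231 and 227 CPM, was the highest of the abundant members. Weighting each cell the same gave 24 lower members, with 15% of genes lower. Immunoglobulin genes took 2.90% and 0.186% of UMIs in these cells, and with them left out of the totals the median was -0.14.

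In T cell-like cells of the CD45- pair (351 and 202 cells) the members' median was above 0. By total UMIs, the share of members higher past the limit was near that of all genes. The median over 76 members was 0.18 against -0.11 over 9172 genes. Past the limit 15 members (19.7%) were higher and none lower, where 17.9% of genes were higher and 31.9% lower. Relative to the median gene 33 were higher (24.3% of genes, and 24.0% lower). Of the 15, 10 belonged to complex I, which holds 35 of the 76. Another 2 belonged to complex III, 1 each to complexes IV and V, and 1 was Cycs. Ndufa1 was at 341 against 201 CPM (0.76, interval 0.56 to 0.97), Uqcrq at 222 against 154 CPM and Ndufs5 at 153 against 110 CPM. Among the other 12 were Ndufv3 (192 against 142 CPM), Cycs (94.0 against 70.8 CPM) and Ndufa4 (494 against 382 CPM). Complex II did not follow, with a median of -0.13, and Sdhd and Sdha were at -0.29 and -0.18.

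The T cell-like class held different cells in these libraries. Cluster 11 made up 74.1% of it in CD45- Tom+ and 28.2% in CD45- Tom-, and cluster 12 the rest. When both libraries were set to the same mix of these clusters the median came to 0.05 against -0.13 over all genes, with 6 members higher and 2 lower, where 15.5% and 30.6% of genes passed. Ndufa1 stayed at 0.61 and Uqcrq at 0.48, while Ndufs5 came to 0.05.

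In the CD45+ pair (132 and 284 cells) the mix of clusters differed as well. Cluster 11 made up 70.5% of the T cell-like class in CD45+ Tom+ and 31.7% in CD45+ Tom-. There 7 members were higher and 7 lower, where 19.1% and 30.9% of genes passed. Relative to the median gene 15 were higher and 3 lower (24.1% and 25.4% of genes), under TMM 14 and 4 (23.2% and 26.0%), and under DESeq2 size factors 14 and 5 (22.9% and 26.4%). The median of -0.02, against -0.09 over 9116 genes, was 0.05 under TMM and under DESeq2 size factors. Ndufs5 (165 against 117 CPM), Ndufa12 (83.6 against 61.8 CPM) and Ndufs8 (59.4 against 44.8 CPM) were highest, and Uqcrc1 (47.3 against 77.8 CPM), Atp5k (153 against 243 CPM) and Ndufa5 (78.1 against 107 CPM) lowest. Uqcrc1 rested on 43 UMIs in the Tom+ library.

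Of the other classes, NK cell-like and plasma cell-like cells had the members' medians furthest from 0. In NK cell-like cells of the CD45- pair (90 and 77 cells) the median over 77 members was 0.30 against -0.14 over 8839 genes, with 38 higher and 2 lower, where 23.2% and 36.7% of genes passed. The cluster behind this class raised 7 T cell markers as well as 7 NK cell markers, so it may hold both. Immunoglobulin genes took 7.86% of its UMIs in CD45- Tom+ and 0.419% in CD45- Tom-. Neither was tested for its part in the result. In plasma cell-like cells of the CD45+ pair (425 and 58 cells) it was -0.27 over 76 members against -0.20 over 6458 genes, with 27 lower and none higher, where 35.0% and 7.36% passed. The lower members were thus near the share of all genes, and their median lay 0.07 below the typical gene. In B cell-like, vascular endothelial-like and mesothelial-like cells the medians lay between -0.09 and 0.06. The 0.06 was that of B cell-like cells of the CD45- pair, where the median over all genes was -0.21. There the members lay 0.27 above the typical gene, with 4 higher and 4 lower, where 12.4% and 38.8% of genes passed.

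**Figure D4:**
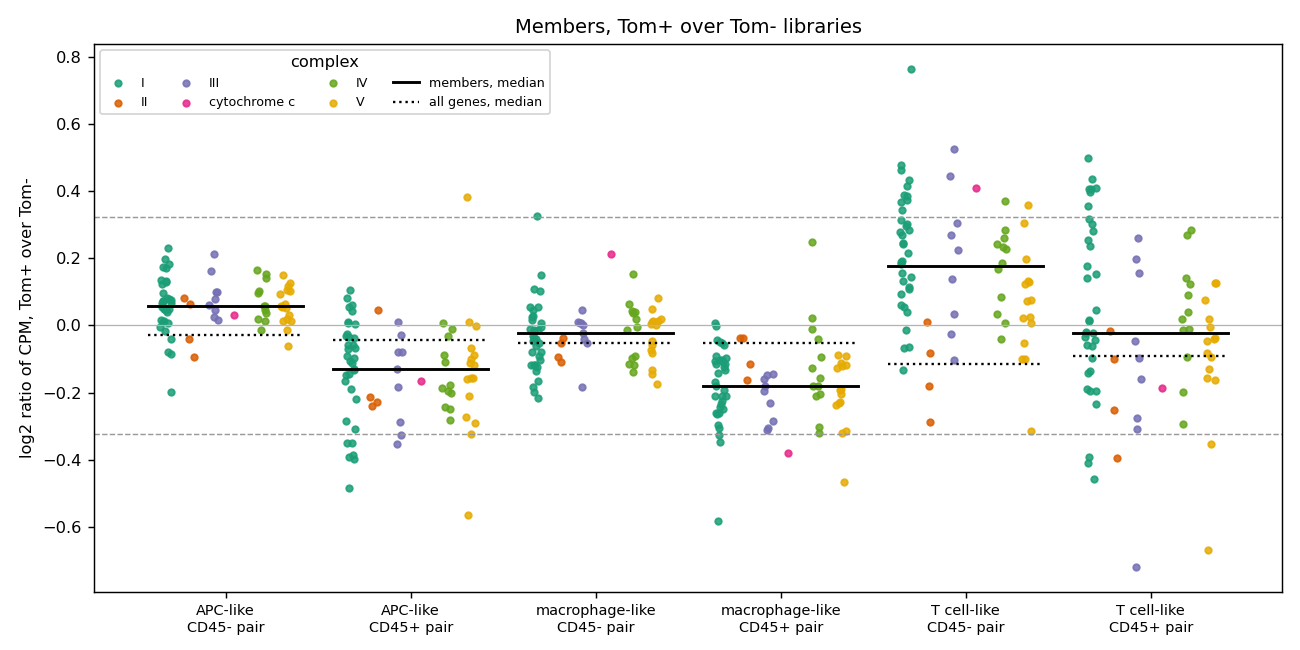
Log2 ratio of CPM, Tom+ over Tom-, for each member in 3 classes and both pairs of libraries, coloured by complex, with the median of the members (solid) and of all genes (dotted) and the limits of 0.32 either way (dashed). The medians are 0.06 and -0.13 in APC-like, -0.02 and -0.18 in macrophage-like and 0.18 and -0.02 in T cell-like cells. Those near 0 in macrophage-like (CD45- pair) and T cell-like cells (CD45+ pair) turn to 0.05 under TMM, and that of APC-like cells (CD45- pair) to -0.05 with cluster 24 counted in.

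Other pathway lists in APC-like and macrophage-like cells are given next for the Tom contrasts. In APC-like cells of the CD45- pair Ucp2 was at 74.2 CPM in Tom+ and 25.7 CPM in Tom-, the furthest of 10 carriers, and in the CD45+ pair it was at 33.6 and 25.5 CPM. None of 13 mitochondrially encoded genes passed in APC-like or macrophage-like cells of the CD45- pair, and their medians were 0.04 and -0.19. In the CD45+ pair mt-Nd6 was higher in APC-like cells (53.1 against 40.3 CPM) and macrophage-like cells (45.6 against 33.6 CPM), and mt-Nd3 was lower in APC-like cells (441 against 572 CPM). Glycolysis medians were -0.24 and -0.26 in APC-like and macrophage-like cells of that pair, with 4 of 15 and 5 of 16 genes lower. In T cell-like cells more genes passed, as among all genes. In the CD45- pair 7 of 35 assembly factors were higher and 5 lower (median 0.09), and 4 of 18 tricarboxylic acid cycle genes were lower. In the CD45+ pair 12 of 37 assembly factors were higher and 6 lower (median 0.09), 2 of 18 tricarboxylic acid cycle genes higher and 7 lower (median -0.28), and 3 of 15 glycolysis genes higher and 4 lower.

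Atp5k and Ndufa3 stood out between both pairs. Atp5k encodes a small membrane subunit of ATP synthase and Ndufa3 a small membrane subunit of complex I. In the CD45+ pair the log2 ratio of Atp5k ran from -0.80 in plasma cell-like cells (84.4 against 147 CPM) to -0.11 in B cell-like cells (136 against 147 CPM), with a median of -0.51 over 8 classes and clusters. In the CD45- pair it ran from -0.11 in vascular endothelial-like to 0.40 in NK cell-like cells, with a median of 0.04 over 9.

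Ndufa3 ran from -0.59 in vascular endothelial-like to -0.09 in cluster 5 in the CD45+ pair, with a median of -0.49, and from -0.22 to 0.37 in the CD45- pair, with a median of 0.05. The classes of a pair come from the same 2 libraries and are not independent of each other. In macrophage-like cells both genes were highest in CD45+ Tom- and lowest in CD45+ Tom+, with both CD45- libraries between: Atp5k measured 201 and 278 CPM in the CD45+ pair and 253 and 244 CPM in the CD45- pair, and Ndufa3 125 and 187 CPM against 161 and 160.5 CPM.

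Ndufa1 and Uqcrq, the members highest in plasma cell-like cells, were higher in Tom+ than in Tom- B cell-like cells of both pairs. In B cell-like cells Ndufa1 was at 230 CPM in CD45- Tom+ and 128 CPM in CD45- Tom- (log2 ratio 0.84, interval 0.59 to 1.11) and at 181 and 136 CPM in the CD45+ pair. In NK cell-like cells it was at 292 and 172 CPM in the CD45- pair. In plasma cell-like cells themselves it was lower in CD45+ Tom+ (489 CPM) than in CD45+ Tom- (596 CPM). In macrophage-like cells it was at 205 and 184 CPM in the CD45- pair and 182 and 200 CPM in the CD45+ pair, so the pairs differed in direction there. Uqcrq in B cell-like cells was at 178 and 132 CPM in the CD45- pair and 161 and 122 CPM in the CD45+ pair.

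Plasma cell markers were higher in the Tom+ than in the Tom- libraries in T cell-like and B cell-like cells. Their sum in T cell-like cells was 5133 CPM in CD45- Tom+, 426 in CD45- Tom-, 3864 in CD45+ Tom+ and 323 in CD45+ Tom-, with all 8 markers above 0 in each. In B cell-like cells it was 6947 CPM in CD45- Tom+ and 724 in CD45- Tom-, with 1 marker at 0 in the latter, and 4155 and 695 CPM in the CD45+ pair, with 1 at 0 in the former. Immunoglobulin UMIs were 9.29% and 1.5% in those B cell-like cells. Over all classes and clusters compared, the Ndufa1 ratio was above 0 in 9 of 9 in the CD45- pair and 4 of 8 in the CD45+ pair. For Uqcrq it was 8 of 9 and 4 of 8. The part of plasma cell markers and immunoglobulin UMIs in these values was not tested.

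**Figure D5:**
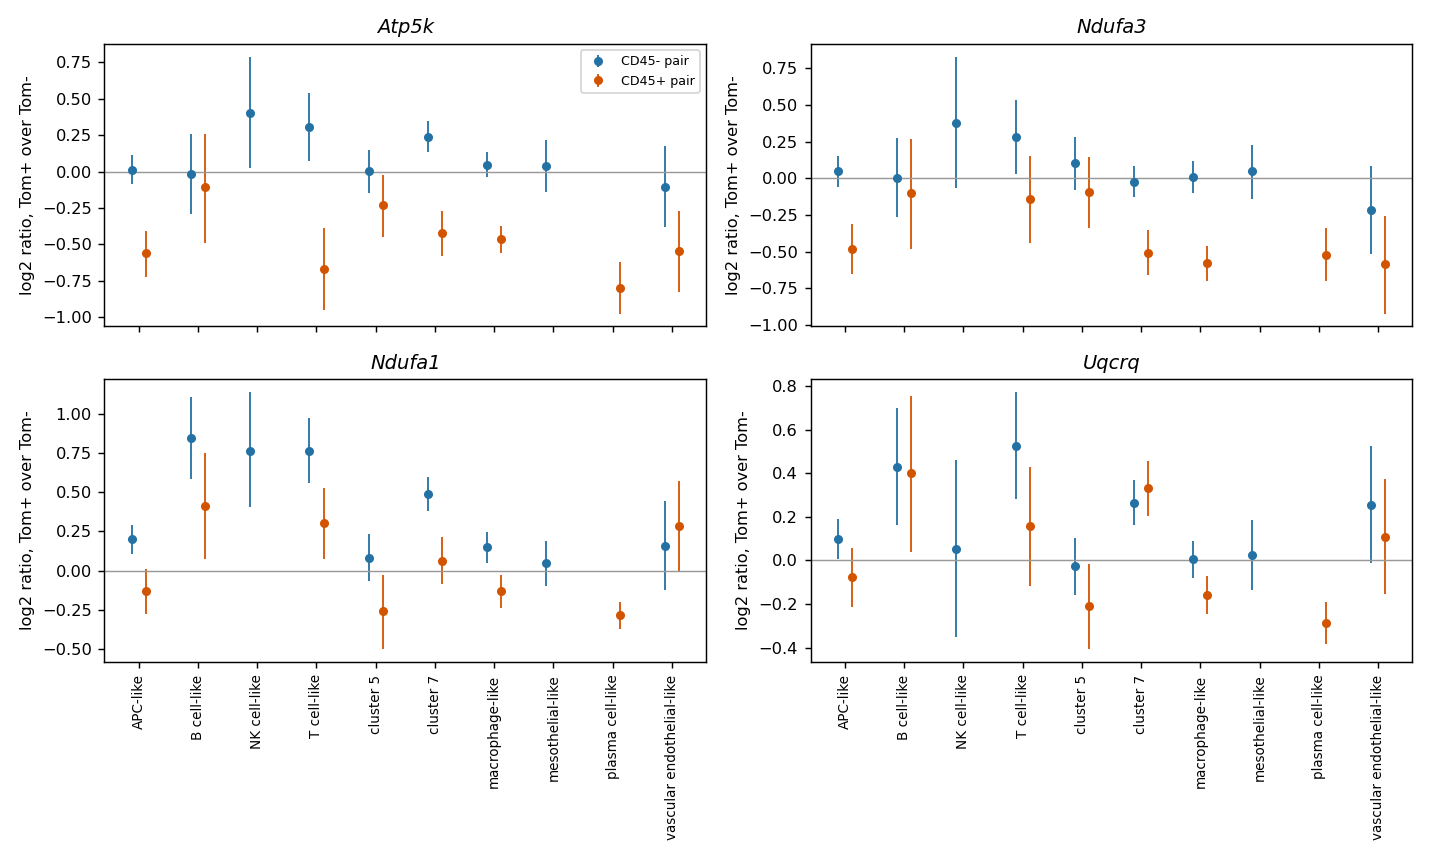
Log2 ratio of CPM, Tom+ over Tom-, of Atp5k, Ndufa3, Ndufa1 and Uqcrq in each class or cluster with at least 50 cells in both libraries of a pair, with counting intervals. Atp5k and Ndufa3 lie lower in the CD45+ pair (medians -0.51 and -0.49) than in the CD45- pair (0.04 and 0.05), and Ndufa1 is highest in B, NK and T cell-like cells of the CD45- pair.

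Libraries with the same Tom label gave a scale for differences that do not involve tdTomato. Between both Tom- libraries APC-like members had a median of 0.04 for CD45+ over CD45-, and none passed the limit, where 0.631% of genes were higher and 0.773% lower. Between both Tom+ libraries the median was -0.15, with 5 members lower and none higher, where 13.6% of genes were lower and 11.2% higher. The Tom+ over Tom- median in the CD45+ pair was -0.13.

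In macrophage-like cells the same medians were 0.05 between the Tom- libraries (no member past the limit, with 5.86% of genes higher and 5.20% lower) and -0.08 between the Tom+ libraries (2 lower, with 5.57% of genes higher and 4.22% lower). In T cell-like cells they were 0.10 between the Tom- libraries (8 higher, with 18.0% of genes higher and 18.8% lower) and -0.07 between the Tom+ libraries (2 higher and 5 lower, with 19.9% of genes higher and 19.4% lower). The library labelled CD45+ Tom+ had the lowest member share of the 4 in APC-like (1.19%) and macrophage-like cells (1.55%). This was not particular to these classes. It was also lowest in B cell-like (1.18%) and vascular endothelial-like cells (1.24%), cluster 5 (1.49%) and cluster 7 (1.66%). In T cell-like cells CD45- Tom- was lowest (1.41%). With immunoglobulin UMIs left out, CD45+ Tom+ was not the lowest in B cell-like cells or cluster 7. The Tom label and the library cannot be told apart.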

How the data were processed

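The authors digested gonadal fat with Liberase, sorted cells by CD45 and tdTomato, made 10x 3′ v3.1 libraries and deposited whole-number UMI counts per gene and barcode, made with Cell Ranger 3.0.2 against mm10, without normalization. Reads that match several genes are not counted there, so members with near-identical copies elsewhere are uncertain. By the study's limits, cells were kept with more than 1000 but fewer than 7000 genes and less than 8% of UMIs from mitochondrial genes, and the top 0.8% of Scrublet scores per 1000 barcodes were removed. Clusters (scanpy 1.11.5, 2000 variable genes, 30 components, 15 neighbours, leidenalg 0.10.2 at resolution 1) were named from fixed markers. Counts were summed per class and library and given as CPM of all UMIs with exact Poisson intervals, and Tom ratios carry the exact interval of a ratio of 2 Poisson counts. Class contrasts used libraries with at least 50 cells of both classes. A gene entered a contrast when it averaged 5 CPM or more. No p-value is given: each group has 1 library, and classes come from clustering these cells. Intervals of single genes hold counting error alone, and the study's test over cells was not used. TMM and size factors came from edgeR 4.0.16 and DESeq2 1.42.0 on the summed counts. Positions are from GENCODE vM21 and promoters from RefSeq. The ratios were tested on simulated data. Named were a fixed panel and the 3 highest and 3 lowest members of at least 20 CPM in each contrast. The widest-ranging member of each complex at that level, up to 3 genes per pathway list and members without a UMI were also named. Members moving with Ndufa1, Uqcrq, Atp5k and Ndufa3, promoter examples and the other members past a limit were chosen after their values were seen. Members and lists were chosen with earlier results of these data known. Values of some genes that this rule would name are not reported here.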

Additional observations from a re-analysis of the deposited data

Results flagged for a closer look

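The Tom+ over Tom- ratio differed in sign between the pairs of libraries in the 4 cases flagged here, with counting intervals or a median on opposite sides of 0. These are not all such cases. None of these differences between pairs was tested, since each pair is 1 library against another. The median over the members in APC-like cells was 0.0574 in the CD45- pair and -0.13 in the CD45+ pair. This was not particular to APC-like cells. The members' median changed sign in the same direction in T cell-like (0.18 and -0.02), B cell-like (0.06 and -0.02) and vascular endothelial-like cells (0.02 and -0.09). It also did so in cluster 5 (0.0005 and -0.09) and cluster 7 (0.04 and -0.06). In macrophage-like cells it was below 0 in both pairs (-0.02 and -0.18). Cycs, the electron carrier cytochrome c, had a log2 ratio of 0.21 in macrophage-like cells of the CD45- pair and -0.38 in those of the CD45+ pair. Ndufa12, an accessory subunit of complex I, had 0.32 and -0.21 in the same cells, and the former was -0.03 in thinned cells. Atp5k, of ATP synthase, had 0.30 and -0.67 in T cell-like cells, whose mix of clusters differed between Tom+ and Tom- in both pairs.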

How the results depend on the processing

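No paired test was made, since the labels carry no replicate numbers and the values come from no test. Class contrasts are ratios within each library, and Tom+ against Tom- over both pairs, with the pair as a block, was not tested. With 1 library per group none was left out. Values are medians of log2 ratios over the members unless a gene is named, Tom contrasts are Tom+ over Tom-, and the cause of each move was not tested.
Under TMM the median was 0.49 in macrophage-like over APC-like, -0.067 in mesothelial-like over APC-like, 0.99 in plasma cell-like over B cell-like (Ndufs1 0.048, Ndufa6 0.11) and 0.15 in T cell-like over B cell-like cells, and in the Tom contrasts 0.045 in macrophage-like (CD45-), 0.32 in T cell-like (CD45-) and 0.053 in T cell-like cells (CD45+). Under DESeq2 size factors these were, without the first, -0.041, 0.97 (Ndufs1 0.019, Ndufa6 0.086), 0.17, 0.049, 0.31 and 0.047. Without immunoglobulin UMIs plasma cell-like over B cell-like was 0.56, and the Tom contrasts were 0.094 and -0.076 in APC-like (CD45-, CD45+), 0.020 in macrophage-like (CD45-) and 0.27 and 0.059 in T cell-like cells.
With the cell limits loosened to 500 genes and 20% mitochondrial UMIs the class contrasts were 0.43 (macrophage-like), 0.17 (mesothelial-like), 0.26 (T cell-like) and -0.71 (mast-like), and the Tom contrasts 0.038 in APC-like (CD45-), 0.0049 and -0.22 in macrophage-like, and 0.36 in the T cell-like class (CD45-). With marked doublets kept T cell-like over B cell-like was 0.28, and the CD45- Tom contrasts were 0.034 in APC-like and -0.054 in macrophage-like cells. With 4000 variable genes the latter was 0.011. With each cell weighted the same the class contrasts were 0.25 (macrophage-like) and -0.35 (mast-like), and the macrophage-like Tom contrasts -0.061 and -0.24. In cells thinned to 2000 UMIs the mast-like contrast was -0.36, the Tom contrasts 0.030 and -0.17 in APC-like and -0.23 in macrophage-like cells (CD45+), and Ndufa12 -0.025 in macrophage-like cells (CD45-). Among settings chosen after seeing the data, cluster 24 counted as APC-like gave -0.052 and -0.21 in the APC-like Tom contrasts, and the same mix of clusters 0.035 in APC-like and 0.050 in T cell-like cells (CD45-).
Of 141 alternative medians 98 stayed within the interval of the reported median and 14 had the opposite sign. That interval was taken over the member genes of a contrast, which come from the same libraries and are not independent. It holds no spread between libraries, so staying within it is no measure of how stable a median is. Members lower past the limit in macrophage-like cells (CD45+) numbered 3 under TMM (9.05% of genes) and 26 in thinned cells (27.6%), against 5 as reported. In T cell-like cells (CD45-) 38 were higher under TMM (26.5%), and in APC-like cells (CD45+) 20 were lower with cluster 24 (38.8%) and 19 in thinned cells (30.2%).
Depth limited members in neutrophil-like cells and in the smaller Tom+ groups, where some rested on 3 to 43 UMIs.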
